A study of Mus musculus with 24 samples.

Results

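Total leukocytes of the spleen were compared between mice of the B6g7 background and mice of the NOD background. The comparison rests on 4 of the 24 arrays of the series, 2 per background, which are all the arrays labelled as splenic leukocytes. They were chosen by these labels and not by any measured value.

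B6g7 stands for C57Bl/6 mice with the H2g7 haplotype on both chromosomes, given in the labels as C57Bl/6-H2g7/g7. NOD, the non-obese diabetic strain, also carries H2g7 as its own haplotype, so the backgrounds share this region and differ elsewhere in the genome. Cells of both groups were sorted by flow cytometry as viable leukocytes (CD45+ Hoechst-), and their RNA was amplified in 1 round. The labels give no age and name no transgene for these mice, and state no treatment for B6g7 array 1. In the study they served as a reference for pancreatic infiltrates of BDC2.5 mice, in which a transgenic T cell receptor makes CD4 T cells recognise pancreatic islets. The other 20 arrays hold pancreatic infiltrate, CD4 T cells of the pancreas and of the pancreatic lymph node, and splenic NK cells, all amplified in 2 rounds. Their titles name BDC2.5 for the infiltrates and T cells and no transgene for the NK cells. Ages are given in days for the infiltrates and T cells and in weeks for the B6g7 NK cells. None is given for the NOD NK cells, so the ages of the backgrounds cannot be compared there. Nothing in the labels says that arrays of the same group stem from different animals, and the p-values below therefore reflect array-to-array spread alone, which may be technical.

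The spleen is rich in B cells and also holds T cells, NK cells, macrophages and granulocytes, and a CD45 sort keeps all of these together. NOD mice develop autoimmune diabetes, and many loci outside the MHC are known to contribute to it, while C57Bl/6 mice do not develop the disease. A comparison of unselected splenic leukocytes therefore shows which transcripts differ between the strains before any islet-directed response is considered.

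The sort was checked against defining markers. Ptprc, which encodes CD45, was at 9.13 and 9.02 in B6g7 and 9.42 and 9.03 in NOD on the log2 intensity scale. B cell genes were bright in every array: Cd79a, the signalling chain of the B cell receptor, lay at 10.21 and 10.81 in B6g7 and 9.82 and 10.82 in NOD. The haemoglobin gene Hba-a1 lay at 10.38 and 9.37 in B6g7 and 10.92 and 10.02 in NOD, so a red cell transcript was bright in all 4 arrays. Transcripts of 37 genes of other tissues had a median level of 4.45, with quartiles of 3.66 and 5.49, and this median is used below as the level at which a transcript may be absent. Folds whose lower group mean is at or under 4.45 are given as "at least", a rule set after seeing the data. Array medians ran from 37.5 to 38.6 in linear intensity. The 3′ and 5′ probe sets of Gapdh, a measure of RNA and amplification quality, differed by 0.371 and 0.297 log2 units in B6g7 and 0.214 and 0.219 in NOD, against 2.56 to 5.27 in the other 20 arrays. Xist was at 3.40 to 3.55 and the Y-linked gene Eif2s3y at 7.05 to 7.62 in the 4 arrays, so neither separated the backgrounds.

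The spleens of the backgrounds were alike over most of the array. Pearson's r over 12422 probe sets was 0.9897 between the B6g7 arrays and 0.9917 between the NOD arrays. Between backgrounds it was 0.9900 for the arrays numbered 1, 0.9914 for those numbered 2, and 0.9870 and 0.9863 for unlike numbers. Arrays of different backgrounds but the same number thus resembled each other about as much as replicates did. Differences over 1 log2 unit were found in 69 probe sets between the group means, against 21 between the B6g7 arrays and 18 between the NOD arrays.

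Of the 12422 probe sets, 9 passed at an adjusted p under 0.05 (0.0725%), 5 of them higher (0.0403%) and 4 lower (0.0322%) in B6g7. After quantile normalization 11 passed, 5 higher and 6 lower. A total of 155 (1.25%) had an unadjusted p under 0.05. In all 9 the arrays of the backgrounds did not overlap. The processing notes name RMA, a summary and normalization method for such arrays, for both NOD spleens and neither B6g7 spleen, and a difference in processing cannot be told apart from one of background by the notes. Of the 9, 7 belong to exactly 1 gene, giving 6 different genes, and 2 match several genes and are called here by their probe set identifiers.

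**Figure D1:**
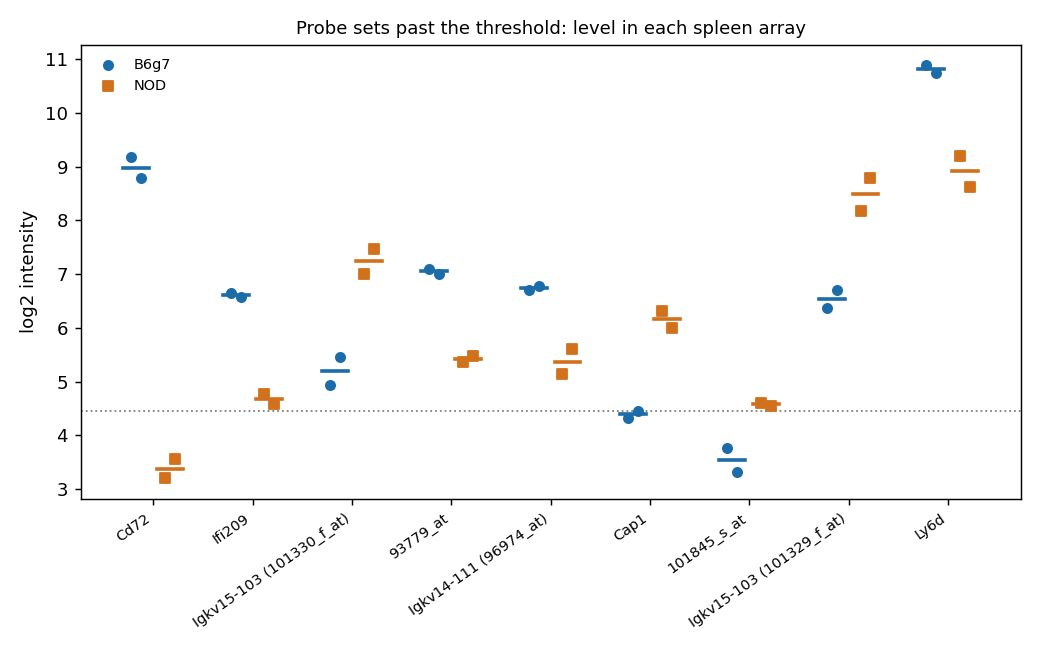
Log2 intensity of the 9 probe sets that passed, in each of the 2 B6g7 arrays (circles) and 2 NOD arrays (squares), with bars at the group means and a dotted line at 4.45, the median level of transcripts of other tissues. Cd72 lies below the dotted line in both NOD arrays and far above it, at 9.18 and 8.78, in the B6g7 arrays.

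Cd72 showed the largest difference of all probe sets tested. It encodes a type II membrane protein of B cells, a co-receptor that carries inhibitory motifs and restrains signalling through the B cell receptor. Its level was 9.18 and 8.78 in B6g7 spleens, against 3.21 and 3.56 in NOD spleens. Both NOD values lay within the range of transcripts of other tissues. The difference of 5.60 log2 units (SE 0.43, adjusted p = 3.35e-06) corresponds to a level at least 48.4-fold higher in B6g7.

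The Cd72 probe set was also at the absent level in the other NOD populations, with group means of 3.51 in infiltrates, 3.35 in NK cells and 3.57 and 3.21 in T cells of the pancreas and the lymph node. In B6g7 it averaged 6.22 in infiltrates, 4.40 in NK cells and 3.49 and 3.64 in T cells of the pancreas and the lymph node. The difference passed in infiltrates (2.71, adjusted p = 0.00174, where 0.274% of probe sets passed). It did not pass in NK cells (1.05, 0.0483% passing), in T cells of the pancreas (-0.08, 0.145% passing) or in those of the lymph node (0.44, 0.129% passing). Over the mean of these 4 populations it was 1.03 (adjusted p = 0.0101), and Cd72 was the 1 probe set of the 9 that passed there as well.

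The promoter window of Cd72 is shown because Cd72 carries the largest difference of the comparison. The window runs from 250 bases before to 50 bases after the annotated start, in the RefSeq sequence of the C57BL/6J assembly GRCm38.p6, at chr4:43454577-43454876 on the minus strand. Capitals mark the letters GAGGAA, the core bound by the B cell and myeloid factor PU.1, or its reverse complement.

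Cd72: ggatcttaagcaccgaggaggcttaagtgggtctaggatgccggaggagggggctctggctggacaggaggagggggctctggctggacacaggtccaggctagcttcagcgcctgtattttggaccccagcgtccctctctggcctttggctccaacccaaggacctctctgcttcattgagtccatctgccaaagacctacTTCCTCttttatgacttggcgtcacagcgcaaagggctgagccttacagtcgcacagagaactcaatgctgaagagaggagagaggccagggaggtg

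The motif occurs 1 time, on the opposite strand, starting 47 bases before the annotated start. It was found in 28.3% of 32851 promoter windows of this length, so its presence is a description only. No NOD sequence was used here, and whether the strains differ in this window or in the probed part of the transcript was not tested.

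Other genes of the B cell surface and lineage did not share the size of the Cd72 difference. Of 23 measured, 19 lay above 0, with a median of 0.16, against 54.2% above 0 and a median of 0.01 over 8251 genes, and 1, Cd72, passed (0.0606% of all genes passed). Both B6g7 arrays were above both NOD arrays for 8 of the 23 and below for 3, against 14.9% above and 11% below over all genes. The median was 0.07 without B6g7 array 1 and 0.255 without B6g7 array 2. Spib, an Ets-family factor of B cells and plasmacytoid dendritic cells, was at 10.164 and 9.996 in B6g7 and 9.53 and 9.22 in NOD (0.71, adjusted p = 1.0). Fcrla, an Fc receptor-like protein kept inside B cells, stood the other way, at 6.18 and 5.80 in B6g7 and 7.51 and 7.21 in NOD (-1.37, adjusted p = 0.412). Cd79a differed by 0.19, Cd79b by 0.13 and the coreceptor gene Cd22 by -0.25, none of them passing. The lists of markers describe bulk samples, in which fewer cells of a type and less RNA per cell cannot be told apart.

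Ly6d, a GPI-anchored surface protein that marks B cell commitment among lymphoid progenitors and stays on mature B cells, rose in B6g7. Its level was 10.88 and 10.73 in B6g7 and 9.20 and 8.63 in NOD (1.89, SE 0.33, adjusted p = 0.0383), without overlap, a 3.71-fold difference. It passed in infiltrates (1.47, adjusted p = 0.0268) and not in the other 3 populations, where it differed by -0.03 to 0.20. Another probe set of Ly6d, with means of 4.04 in B6g7 and 3.94 in NOD and so at the absent level, gave 0.10. The call of Ly6d did not hold when any one of the 4 spleen arrays was left out, with an adjusted p of up to 0.937 without NOD array 2.

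Ly6e, a ubiquitous member of the same family that is induced by type I interferon, was among the brightest transcripts. It stood at 12.98 and 12.88 in B6g7 and at 11.77 and 11.88 in NOD, a difference of 1.10 (SE 0.35, adjusted p = 1.0). The mean of the other 4 populations gave 1.17 (adjusted p = 4.91e-04). Arrays of those populations entered the spleen comparison only through the shared estimate of spread. Another probe set of Ly6e gave 0.08 in spleen. In the assembly GRCm38.p6, 7 protein-coding genes lie between Ly6d and Ly6e. Of 10 measured genes of the Ly6 family, 9 lay above 0, against 54.2% of all genes, with a median of 0.10. Ly6d alone passed, against 0.0606% of all genes. Without overlap, 3 of the 10 lay above and 1 below, against 14.9% and 11% of all genes.

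Among the early B cell genes Ly6d alone passed. Vpreb3, a chaperone of the pre-B cell receptor, was at 8.53 and 7.50 in B6g7 and 7.33 and 7.05 in NOD (0.83, adjusted p = 1.0), without overlap. Rag1, Rag2, Dntt, Vpreb1 and Igll1, which act in the rearrangement of antigen receptors or in the surrogate light chain, differed by 0.04 to 0.07. Over 18 genes of immature and subset B cells the median was 0.06, with 13 above 0 (54.2% of all genes) and Ly6d alone passing (0.0606% of all genes). Of the 18, 4 were without overlap above and 4 below, against 14.9% and 11% of all genes, and the median was -0.02 without B6g7 array 2 and 0.12 without B6g7 array 1.

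Ifi209 rose in B6g7. It belongs to the Ifi200 family, a cluster of interferon-inducible proteins with PYRIN and DNA-binding HIN domains, several of which sense DNA. Its level was 6.66 and 6.57 in B6g7 spleens and 4.77 and 4.58 in NOD spleens, without overlap (1.93, SE 0.22, adjusted p = 6.31e-04, 3.82-fold). In the other 4 populations the difference was -0.11 in infiltrates, 0.01 in NK cells, and 0.08 and -0.56 in T cells of the pancreas and the lymph node, and all 8 group means there lay between 4.24 and 4.94. Both B6g7 spleen arrays lay above every other group mean.

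The members of the family measured beside it did not move with it. Ifi204 was at 7.89 and 7.71 in B6g7 and 8.45 and 8.22 in NOD (-0.53, adjusted p = 1.0). Ifi207 was at 5.71 and 5.53 in B6g7 and 5.48 and 5.67 in NOD (0.05). Ifi202b, a family member that lacks the PYRIN domain, was at the absent level in spleen, at 3.01 and 3.00 in B6g7 and 3.41 and 3.24 in NOD (-0.32, adjusted p = 1.0), and lower in B6g7 in the mean of the other 4 populations (-0.70, adjusted p = 2.54e-04). In GRCm38.p6, 1 protein-coding gene lies between Ifi209 and Ifi207, 2 between Ifi209 and Ifi204, and 6 between Ifi209 and Ifi202b. These 4 genes are 4 of 15 listed, the others not being analysed here, and near-identical copies in the cluster may share signal.

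The promoter window of Ifi209, from the same RefSeq table, lies at chr1:173630609-173630908 on the plus strand. It is shown because other interferon-induced genes did not move with Ifi209. Capitals mark GAAACT, a part of the interferon response element, or its reverse complement, which occurs 1 time, on the opposite strand, starting 95 bases before the annotated start. GAGGAA does not occur in it.

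Ifi209: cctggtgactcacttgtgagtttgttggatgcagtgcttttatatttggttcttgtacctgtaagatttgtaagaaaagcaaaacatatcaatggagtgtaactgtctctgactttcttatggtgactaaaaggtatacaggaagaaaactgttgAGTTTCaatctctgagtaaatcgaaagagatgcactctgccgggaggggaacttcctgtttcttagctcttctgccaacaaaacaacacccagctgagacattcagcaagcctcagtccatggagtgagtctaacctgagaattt

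GAAACT was found in 15.8% of the 32851 windows and not in that of Cd72. A match here is a description and not a site of binding.

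Interferon-induced genes outside the family did not follow Ifi209. Of 17 genes induced by type I interferon none passed, 7 lay above 0 and the median was -0.12, with 5 without overlap above and 4 below, against 14.9% and 11% of all genes. Isg15, a ubiquitin-like modifier, was at 7.15 and 6.84 in B6g7 and 7.77 and 7.20 in NOD (-0.49). This median was 0.20 without NOD array 1 and between -0.14 and -0.003 when one of the other arrays was left out, so it has no settled direction.

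Genes induced by interferon-γ lay mostly below 0. Of 19, 14 lay below 0, the median was -0.19, and both B6g7 arrays were below both NOD arrays for 8 and above for none, against 11% and 14.9% over all genes. None passed, and none had an unadjusted p under 0.05. Gbp2, a guanylate-binding protein, was at 6.57 and 6.23 in B6g7 and 7.35 and 7.15 in NOD (-0.85, SE 0.47). Igtp, an immunity-related GTPase, was at 6.89 and 6.70 in B6g7 and 7.76 and 7.27 in NOD (-0.72, SE 0.42). Ciita, the coactivator of MHC class II genes, was at 6.92 and 6.87 in B6g7 and 7.44 and 7.17 in NOD (-0.41, SE 0.21). The median of this list stayed below 0 whichever array was left out, between -0.36 and -0.10. In the mean of the other 4 populations it was 0.08, and the difference between spleen and those populations was not tested for the list.

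Immunoglobulin light chain segments moved in both directions. Igkv15-103, a kappa variable segment, fell in B6g7 by both of its probe sets. The dimmer, 101330_f_at, had 4.94 and 5.46 in B6g7 and 7.003 and 7.474 in NOD (-2.04, SE 0.24, adjusted p = 6.78e-04). The brighter, 101329_f_at, had 6.37 and 6.71 in B6g7 and 8.18 and 8.79 in NOD (-1.95, SE 0.31, adjusted p = 0.0114), and its call was lost in 3 of 4 leave-one-out fits, with an adjusted p of up to 0.415 without NOD array 2. Neither probe set overlapped between the backgrounds.

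Another kappa segment, Igkv14-111, rose by 1 probe set. Probe set 96974_at was at 6.70 and 6.77 in B6g7 and 5.14 and 5.61 in NOD (1.36, SE 0.17, adjusted p = 6.78e-04). The other 2 probe sets of Igkv14-111 gave -0.01 and -0.03, so the segment's probe sets disagree. Igkv8-30 was at 8.09 and 8.45 in B6g7 and 6.13 and 6.35 in NOD (2.03, SE 0.48, adjusted p = 0.346), while its other probe set gave -0.06. Variable segments are near-identical members of large families, and probe sets of the families can share signal, so the segment named need not be the one that differs.

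Across 26 immunoglobulin genes the median was -0.02, with 12 above 0. Of the 26, 1 (Igkv15-103) passed, against 0.0606% of all genes. Without overlap, 4 lay above and 7 below, against 14.9% and 11% of all genes. The median was -0.21 without NOD array 1 and 0.11 without NOD array 2, so it has no settled direction. The constant region genes Ighm (-0.07) and Ighd (-0.11) of unswitched B cells, and the lambda constant gene Iglc1 (0.03), stood near 0. The mean level of the 23 B cell surface and lineage genes, Cd72 included, was 8.70 and 8.50 in B6g7 and 8.30 and 8.24 in NOD. Most of the gap in this mean comes from Cd72 alone, which differed by 5.60, while the median difference of the 23 was 0.16. The part of B cell content in the values of the segments was not tested. Plasma cell genes had a median of -0.12 over 15, between -0.25 (without B6g7 array 1) and -0.04 (without NOD array 2), with 4 above 0 and none passing. Without overlap, 2 lay above and 4 below, against the same 14.9% and 11%. Jchain, which joins polymeric IgM and IgA, was at 7.33 and 8.24 in B6g7 and 8.19 and 9.32 in NOD, overlapping.

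Cap1, an actin monomer-binding protein that recycles cofilin-bound actin, fell in B6g7. It was at 4.32 and 4.46 in B6g7 and at 6.32 and 6.00 in NOD, without overlap (-1.77, SE 0.22, adjusted p = 6.78e-04). The B6g7 mean was at the absent level, so Cap1 was at least 3.41-fold lower in B6g7. In the other 4 populations it differed by -0.06 to -0.29. Of 26 genes of the actin cytoskeleton, 12 lay above 0, the median was -0.03 and Cap1 alone passed (0.0606% of all genes passed). Both directions had 5 without overlap, against 14.9% above and 11% below over all genes. Lcp1, the leukocyte actin-bundling protein L-plastin, was at 10.03 and 9.70 in B6g7 and 9.03 and 9.01 in NOD (0.85, adjusted p = 1.0). Cfl1, Actb and Pfn1, the genes of cofilin, β-actin and profilin, differed by -0.02, -0.13 and 0.20.

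The remaining 2 probe sets that passed match several genes. Probe set 93779_at was at 7.10 and 7.01 in B6g7 and 5.37 and 5.48 in NOD (1.63, SE 0.20, adjusted p = 6.78e-04). Probe set 101845_s_at was at 3.77 and 3.33 in B6g7 and 4.60 and 4.55 in NOD (-1.03, SE 0.16, adjusted p = 0.00879), with the B6g7 mean at the absent level, and its call held in 1 of 4 leave-one-out fits, with an adjusted p of up to 0.214 without B6g7 array 2. The calls of Cd72, Ifi209, 93779_at, Cap1, Igkv14-111 (96974_at) and Igkv15-103 (101330_f_at) held in all 4 such fits, with adjusted p of at most 0.0351.

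The difference between spleen and the mean of the other 4 populations was tested directly for every probe set, and 7 (0.0564%) passed. All 7 are among the 9 above. For Cd72 the spleen exceeded the others by 4.57 log2 units (SE 0.47, adjusted p = 2.98e-04) and for Ifi209 by 2.08 (SE 0.24, adjusted p = 8.58e-04). The others were Igkv15-103 (101330_f_at), Igkv14-111 (96974_at), Cap1, 93779_at and 101845_s_at. For Ly6d (adjusted p = 0.947) and for Igkv15-103 by probe set 101329_f_at (adjusted p = 0.282), no difference from the other populations was shown. Leaving out any one of the 4 spleen arrays, 3 to 4 probe sets passed in place of 7. This comparison uses the same spleen values as the calls themselves, and the cell mixture, the number of amplification rounds and the population cannot be told apart in it.

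**Figure D2:**
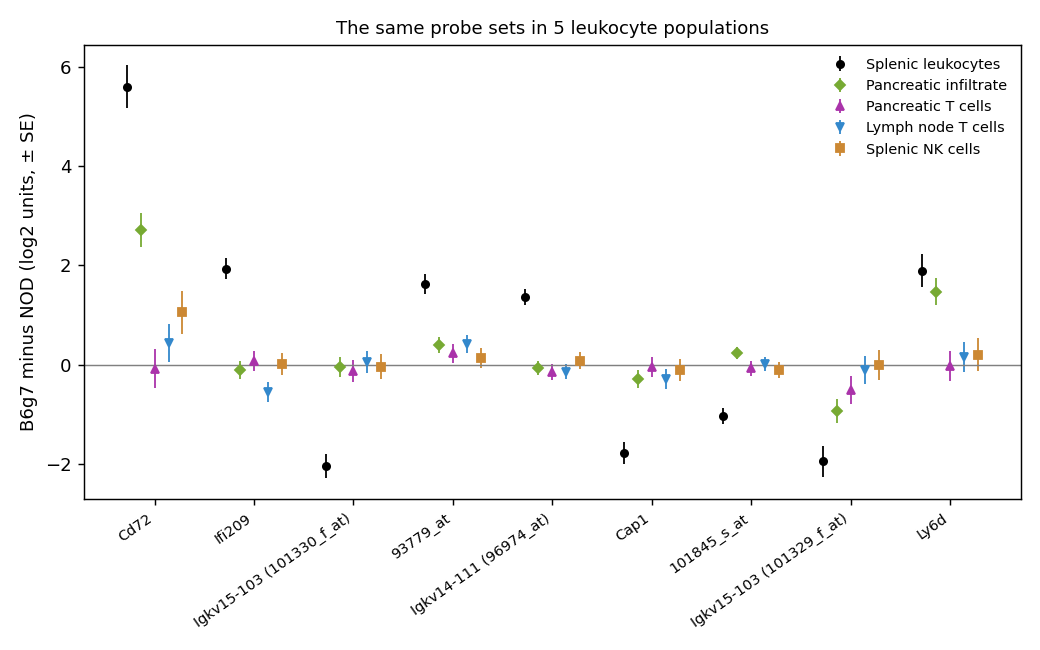
B6g7 minus NOD difference in log2 units, with its standard error, for the 9 probe sets that passed in spleen, in each of the 5 leukocyte populations. Cd72 and Ly6d also lie above 0 in infiltrates, while Ifi209, Cap1, Igkv14-111 and Igkv15-103 (101330_f_at) lie near 0 in every other population (Ifi209 from -0.56 to 0.08).

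Beyond the 9 calls, the spleens were set against differences seen in the other populations. In the mean of those 4 populations, measured on 20 other arrays, 125 probe sets passed (1.01%), 87 higher and 38 lower in B6g7. In spleen, 117 of the 125 had the same sign (93.6%), against 53.9% of all probe sets. The spleen arrays did not overlap in that direction for 95 of the 125 (76%), against 15.4% of all probe sets, and did not overlap in the opposite direction for 2. The median difference of the 87 was 0.54 in spleen and 0.81 in the other populations, and that of the 38 was -0.45 in spleen and -0.69 in the other populations. In spleen 50 of the 125 had an unadjusted p under 0.05 with the same sign, and 1, Cd72, passed.

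**Figure D3:**
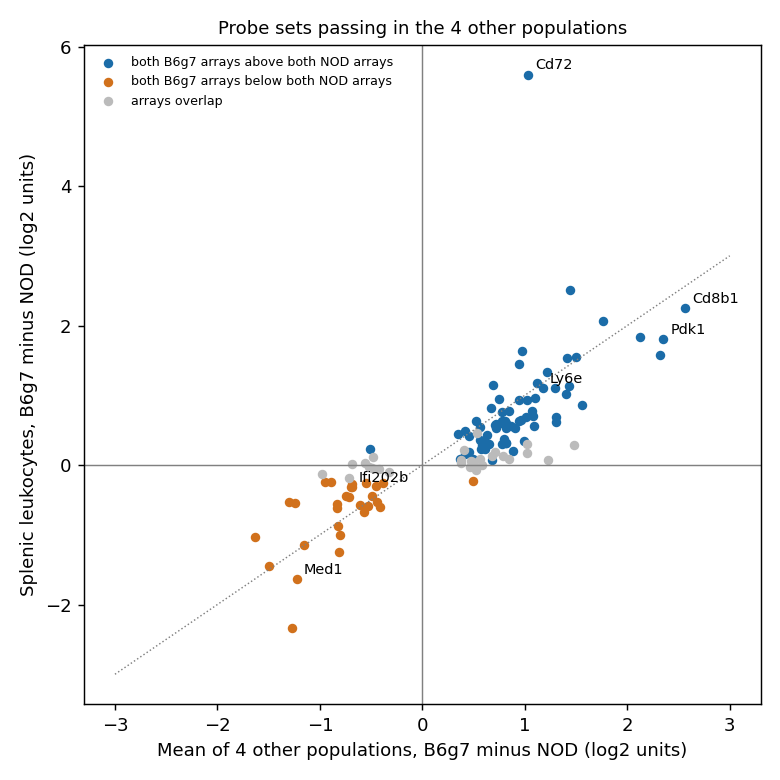
The 125 probe sets that passed in the mean of the 4 other populations, with their difference there on the horizontal axis and in splenic leukocytes on the vertical axis, both B6g7 minus NOD in log2 units (dotted line, equal differences). On both axes 117 of the 125 lie on the same side of 0, the medians lie nearer 0 in spleen (0.54 against 0.81, and -0.45 against -0.69), and Cd72 stands far above the dotted line at 5.60.

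Among the genes that came next in spleen by p, some passed in the mean of the other populations. Slc1a5, the transporter of glutamine and other neutral amino acids, was at 6.78 and 6.36 in B6g7 and 4.99 and 4.89 in NOD (1.63, adjusted p = 0.0812), with 0.97 (adjusted p = 0.00128) in the mean of the other populations. Pdk1, a kinase that inhibits pyruvate dehydrogenase, was at 6.93 and 7.05 in B6g7 and 5.19 and 5.18 in NOD (1.80, adjusted p = 0.433), with 2.35 (adjusted p = 7.71e-06) in the others. Tmem14c, a mitochondrial membrane protein needed for haem synthesis, was at 7.70 and 7.24 in B6g7 and 5.70 and 5.56 in NOD (1.83, adjusted p = 0.834), with 2.13 (adjusted p = 1.21e-04) in the others. In these 3 genes the gap between the backgrounds was wider than the spread within either.

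In the lower direction, Med1, a subunit of the Mediator complex, was at 6.02 and 5.84 in B6g7 and 7.70 and 7.43 in NOD (-1.64, adjusted p = 0.872), with -1.23 (adjusted p = 0.00582) in the others. Rflnb, a regulator of filamin, was at 8.44 and 8.22 in B6g7 and 9.59 and 9.56 in NOD (-1.25, adjusted p = 1.0), with -0.82 (adjusted p = 0.0485) in the others. Of the 12 genes with the smallest p among those higher in B6g7 without overlap that did not pass, 8 passed in the other populations and 11 had the same sign there. Of the 12 such genes lower in B6g7, 4 passed there and 12 had the same sign. Of all probe sets, 1.01% passed there and 53.9% had the same sign. Both p-values use the same estimate of spread per probe set, so probe sets with little spread can rank high in both. The further higher genes were Igkv8-30, Map7, Klra3, Tgif1, Gm11346, Hjurp, Agtrap, Rpp14 and AI506816, with differences from 0.55 to 2.03. The further lower genes were Notch4, Fcrla, Trib3, St6galnac2, 1110059E24Rik, Eloa, Cmah, Pqlc3, Scg5 and Gad1, with differences from -1.37 to -0.54.

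Some of these rest on 1 of several probe sets. AI506816 gave 1.85 by its brighter probe set and -1.45 by the other, and Eloa gave -0.59 and 0.59. Notch4 gave -0.79 and -0.06. Opposite values within 1 gene show that a probe set need not stand for the transcript as a whole.

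The standard error of each gene came from all 10 groups, and in spleen its median was 0.25 log2 units. When the 4 spleen arrays were fitted alone, 50 probe sets passed, 29 higher and 21 lower, and 8 of the 9 were among them. Of the 50, 48 had the same sign in the mean of the other 4 populations and 20 passed there, against 53.9% and 1.01% of all probe sets. The smallest adjusted p after that of Cd72 was that of Ctsc, cathepsin C, the protease that activates granzymes, which was named after its values were seen. By probe set 101020_at it was at 5.92 and 5.79 in B6g7 and 3.27 and 3.40 in NOD (at least 5.71-fold higher, 2.51, adjusted p = 6.77e-04 in the spleen arrays alone and 0.0858 over all arrays), with 1.44 (adjusted p = 0.00200) in the others. A brighter probe set of Ctsc, 101019_at, was at 6.60 and 6.48 in B6g7 and 6.78 and 6.66 in NOD (-0.19, adjusted p = 1.0), and 161251_f_at gave 0.59. The probe sets of Ctsc therefore disagree. A brighter transcript with no gene in the annotation, probe set 97282_at, showed the largest difference in the lower direction among the 50, at 6.50 and 6.91 in B6g7 and 10.96 and 10.23 in NOD (-3.89, adjusted p = 0.00219 in the spleen arrays alone and 1.0 over all arrays). Its SE of 1.41 over all arrays shows that it varied strongly within the other groups.

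NK cell and cytotoxic genes were above 0 in 15 of 22, with a median of 0.33, and both B6g7 arrays were above both NOD arrays for 13 of the 22, against 14.9% of all genes, and below for 1. None passed. Klra3, an NK receptor of the Ly49 family, was at 5.97 and 6.18 in B6g7 and 4.85 and 4.59 in NOD (1.35, adjusted p = 0.601). Gzma, granzyme A, was at 8.50 and 8.33 in B6g7 and 7.93 and 6.90 in NOD (1.002, SE 0.49). Tyrobp, the adaptor DAP12 of NK and myeloid receptors, was at 9.05 and 8.53 in B6g7 and 8.03 and 7.67 in NOD (0.94, SE 0.61). Gzmb and Prf1, the genes of granzyme B and perforin, differed by 0.66 and 0.34, while Ncr1, Itga2 and Eomes differed by -0.32, -0.07 and -0.11. The median stayed between 0.20 and 0.33 when single arrays were left out.

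T cell genes lay mostly below 0. Of 24, 19 lay below 0, with a median of -0.32, and both B6g7 arrays were below both NOD arrays for 12, against 11% of all genes, and above for 1. None passed. Cd3g, a chain of the T cell receptor complex, was at 8.53 and 7.63 in B6g7 and 9.10 and 8.82 in NOD (-0.88, SE 0.59). Cd3e, Cd3d and Cd4 differed by -0.44, -0.54 and -0.30. Of 8 T cell receptor segments, 6 lay below 0, the median was -0.33 and 4 were without overlap below, against the same 11%. That median was -0.17 without NOD array 1 or without B6g7 array 2, and -0.48 without NOD array 2. The T cell gene median stayed between -0.43 and -0.21 when single arrays were left out.

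The 1 T cell gene above without overlap was Cd8b1, the β chain of the CD8 coreceptor. It was at 8.42 and 7.65 in B6g7 and 5.96 and 5.61 in NOD (2.25, SE 1.01, adjusted p = 1.0 over all arrays and 0.0141 in the spleen arrays alone). Cd8a, its partner chain, stood the other way, at 7.23 and 6.84 in B6g7 and 7.96 and 7.26 in NOD (-0.57, adjusted p = 1.0). The Cd8b1 difference was also above 0 in each other population, from 2.12 in infiltrates to 2.98 in pancreatic T cells, and passed in their mean (2.56, adjusted p = 0.00678). The T cell arrays hold cells sorted as CD4 T cells, and Cd8b1 averaged 7.77 in B6g7 and 4.80 in NOD in those of the pancreas. Whether this probe set reads the same transcript in both strains was not tested.

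**Figure D4:**
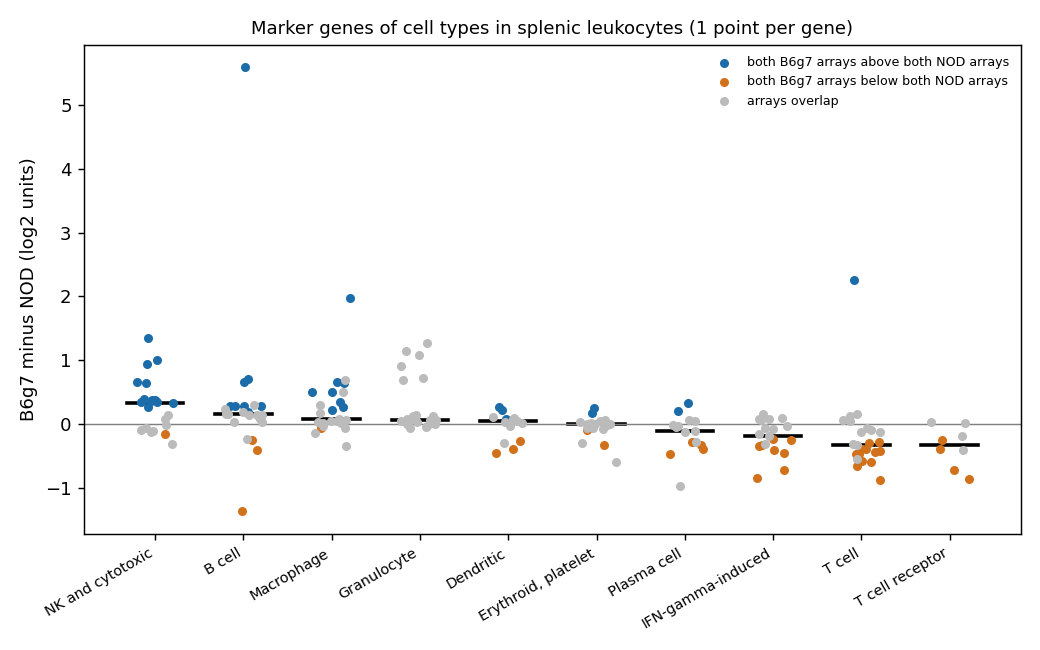
B6g7 minus NOD difference in splenic leukocytes (log2 units), 1 point per measured gene, in 10 lists of marker genes, with black bars at the medians and colours showing whether the arrays overlap. NK and cytotoxic genes lie mostly above 0 (median 0.33), T cell and T cell receptor genes mostly below (medians -0.32 and -0.33), and granulocyte genes overlap between the backgrounds.

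Myeloid genes gave a smaller difference. Of 25 macrophage and monocyte genes, 20 lay above 0, with a median of 0.08, and none passed. Of these, 8 were without overlap above and 1 below, against 14.9% and 11% of all genes, of which 54.2% lay above 0. The median was 0.14 without B6g7 array 2 and between 0.06 and 0.08 when one of the other arrays was left out. Apoe, apolipoprotein E, a product of splenic macrophages, was at 9.14 and 8.49 in B6g7 and 6.95 and 6.74 in NOD (1.97, SE 2.10, adjusted p = 1.0 over all arrays and 0.0139 in the spleen arrays alone). Mpeg1, the pore-forming protein of macrophages, was at 8.39 and 7.86 in B6g7 and 7.45 and 7.49 in NOD (0.65), while Adgre1, Siglec1 and Marco, markers of splenic macrophage subsets, differed by 0.01 to 0.04. Of 14 dendritic cell genes, 9 lay above 0, with a median of 0.04, -0.02 without NOD array 1, and 3 without overlap in each direction, against 14.9% above and 11% below. Erythroid and platelet genes had a median of -0.01 over 17.

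Granulocyte genes varied between arrays of the same background more than between backgrounds. S100a8, a calcium-binding protein of neutrophils, was at 7.85 and 9.66 in B6g7 and 8.62 and 6.62 in NOD. Ngp, neutrophilic granule protein, was at 7.08 and 9.08 in B6g7 and 7.33 and 6.28 in NOD. Of 24 granulocyte genes none was without overlap in either direction, against 14.9% above and 11% below over all genes. Of the 24, 19 lay above 0, against 54.2% of all genes, and the median was 0.07. B6g7 array 2 was the highest of the 4 arrays for both genes named here.

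Other genes separated the arrays by number. Fos, an immediate early gene induced within minutes by stimulation or handling of cells, was at 7.17 and 4.83 in B6g7 and 8.08 and 4.49 in NOD, high in the arrays numbered 1 of both backgrounds. Igha, the heavy chain constant gene of IgA, was at 8.23 and 9.21 in B6g7 and 6.72 and 9.46 in NOD, high in the arrays numbered 2. Cxcr4, a chemokine receptor, was at 5.40 and 6.50 in B6g7 and 6.50 and 7.48 in NOD, higher in the array numbered 2 of each background. Its difference between backgrounds was about as large (-1.04), and B6g7 array 2 was level with NOD array 1. Over 29 immediate early and heat shock genes the median was -0.02, and between -0.24 and 0.22 when single arrays were left out.

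**Figure D5:**
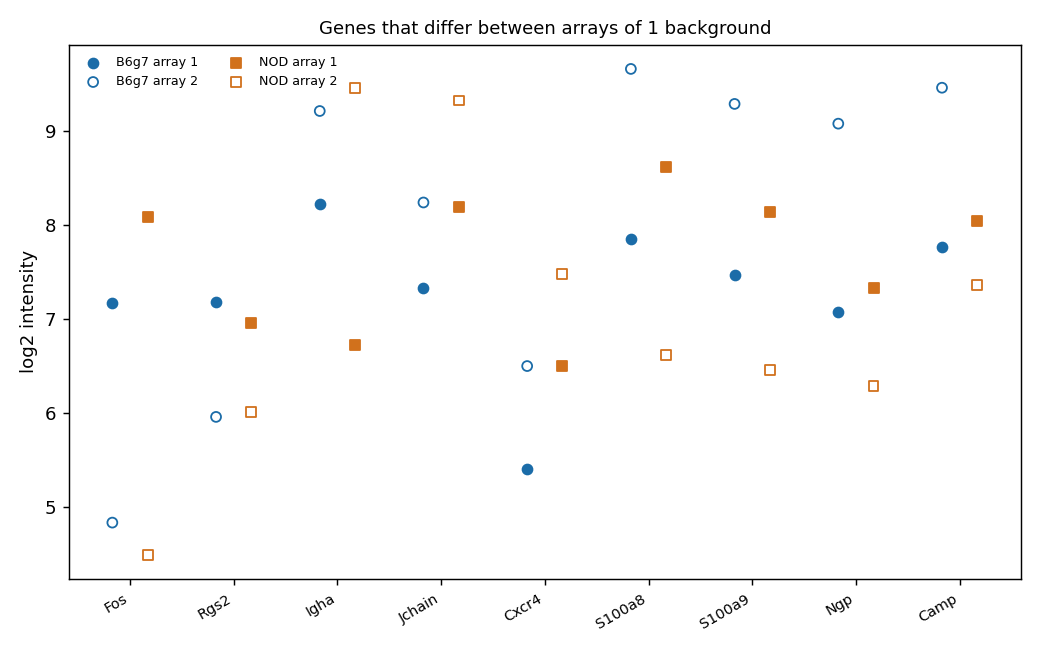
Log2 intensity in each spleen array of 9 genes that differed between arrays of the same background (filled symbols, arrays numbered 1; open symbols, arrays numbered 2). Fos is high in both arrays numbered 1, Igha and Jchain are higher in both arrays numbered 2, and the granulocyte genes S100a8, S100a9, Ngp and Camp are highest in B6g7 array 2.

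No gene of antigen presentation passed, in mice that share the H2g7 haplotype. Of 19 genes of MHC class II presentation none passed, 7 lay above 0 and the median was -0.03. The class II chains H2-Aa, H2-Ab1 and H2-Eb1 differed by -0.05, -0.03 and -0.03, and H2-Ea by 0.03. Of 19 genes of MHC class I presentation none passed and the median was -0.07 (-0.215 without B6g7 array 1 and -0.01 without B6g7 array 2), with H2-K1 at 0.11, H2-D1 at 0.08 and B2m at -0.08. Of 19 candidate genes proposed for NOD diabetes loci, 1, Cd72, passed, against 0.0606% of all genes, and the median was 0.03. This list was chosen with earlier results of these data known, so the call of Cd72 in it is no separate support. Icos, a costimulatory receptor of T cells, was at 4.82 and 5.05 in B6g7 and 4.40 and 4.42 in NOD (0.52, adjusted p = 1.0). Ctla4, Ptpn22, Il2 and Vcam1 differed by -0.11, -0.32, 0.03 and 0.69, none of them passing.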

How the data were processed

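Sorted leukocytes of mice were profiled on 24 arrays of 12488 probe sets each. The authors deposited 1 table of linear intensity; RMA is named for both NOD spleen arrays and for neither B6g7 spleen array, per the submitters' processing notes, so processing and background cannot be told apart from the notes. The deposited intensity, at least 5.70, was put on the log2 scale with no pseudocount. Leaving out 66 controls, 12422 probe sets were tested. Names came from the platform annotation, updated by Entrez identifier against GRCm38.p6: 10833 probe sets had 1 gene, 396 several and 1193 none. The probe set with the highest mean stood for each of 8251 genes.

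Means of all 10 groups were fitted with limma 3.58.1 in R 4.3.3 (14 residual degrees of freedom), with Benjamini-Hochberg adjustment over all probe sets. Every adjusted p is from this fit, two-sided, unless another fit is named. Differences are B6g7 minus NOD. The other populations were averaged with equal weight, and their difference from spleen was tested as a contrast. With 2 arrays a group, the number of arrays limits the precision. On data simulated for the spleen comparison, 54 of 100 probe sets changed by 1 log2 unit and 87 of 100 changed by 2 were called, with 12 false calls among 12422. Far more probe sets passed there than the 9 of the data, and the adjustment is less strict when more pass. The simulated shares may therefore overstate what the comparison could detect. In the text, named genes are those passing in spleen or in the contrast, the 12 next by p in each direction without overlap, up to 4 of each list, and members named for background.

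Alternatives were quantile normalization, median centring, array weights, the 4 spleen arrays alone, a filter on the dimmest 40% of probe sets, a robust prior with an intensity trend, a replicate block, adjacent serial codes as pairs, 1 probe set per gene, adding 16 before log2, and leaving out each spleen array. The members, the 31 gene lists and the naming rule were chosen with earlier results of these data known. A called gene inside a list is therefore no separate support for its call.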

Additional observations from a re-analysis of the deposited data

Results flagged for a closer look

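For 7 probe sets the difference between backgrounds in spleen differed from its mean in the other 4 populations, by the contrast of the limma fit over all arrays. Cd72, the B cell co-receptor, exceeded the others by 4.57 log2 units, at 5.60 in spleen against 1.03. Ifi209, of the Ifi200 family, exceeded them by 2.08, at 1.93 against -0.15. The kappa segment Igkv14-111 (96974_at) exceeded them by 1.44, at 1.36 against -0.07, and probe set 93779_at by 1.34, at 1.63 against 0.29. In the lower direction, Igkv15-103 (101330_f_at) had -2.00, at -2.04 against -0.04. The actin regulator Cap1 had -1.58, at -1.77 against -0.19, and probe set 101845_s_at had -1.04, at -1.03 against 0.01. Cd72, Cap1 and 101845_s_at had a group mean at the level of absent transcripts in spleen. In the other populations Ifi209, Cap1, 101845_s_at and both kappa probe sets were near or under that level in both backgrounds. RNA of the other populations had 2 rounds of amplification against 1 in spleen, and the part of this in the differences was not tested.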

How the results depend on the processing

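Of the 9 spleen calls, 2 remained without the 40% dimmest probe sets, which left 3 of the 9 among those tested, and 5 remained with 1 probe set per gene. Array weights gave 66 calls (37 higher, 29 lower) and the 4 spleen arrays alone 50. Leaving out single arrays gave 6 to 7. Other settings gave 8 to 14, with 5 higher and 6 lower after quantile normalization, 4 and 4 after median centring, 6 and 7 with 16 added and 7 and 7 with a replicate block in all populations (14 calls), against 5 and 4. A replicate block in spleen gave the same count of 9; same-numbered spleen arrays deviated together (correlation 0.463), but the labels do not say what a number shares, and with 2 pairs they were not taken as paired. For the contrast of spleen with the other populations, 7 calls became 0 without the dimmest probe sets (46 at an unadjusted p under 0.05, limma), 16 with array weights, 4 with a replicate block in all populations, 3 with 1 probe set per gene and 3 to 4 without single arrays. The filter on the dimmest probe sets left 1 of these 7 among those tested. In the mean of the other populations, 125 became 196 with array weights and 236 with the replicate block. The causes of these shifts in count were not tested, apart from the smaller number of probe sets tested. None of the 9 called probe sets or the next 12 genes in each direction reversed its sign. All of them were without overlap in spleen, so leaving out 1 array could not reverse a sign. Settings that alter only the estimate of spread leave the difference unchanged. The kept signs are therefore no measure of robustness. The signs of other genes named were not run singly. With 2 arrays a group and a median SE of 0.25, differences well under 1 log2 unit could seldom pass.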

Other observations

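Over 34 ribosomal protein genes the median was -0.01, and between -0.02 and -0.003 when single arrays were left out. Over 73 genes of oxidative phosphorylation it was -0.02, with -0.17 without B6g7 array 1 and 0.10 without B6g7 array 2, so it has no settled direction. None of either list passed. Of 28 cell cycle genes, 12 lay above 0, with a median of -0.03 and none passing; Rrm2, a subunit of ribonucleotide reductase, was at 4.66 and 4.58 in B6g7 and 5.11 and 5.03 in NOD. Of 26 chemokine and homing genes, 4 were without overlap above (15.4%) and 10 below (38.5%), against 14.9% and 11% of all genes, with a median of -0.06 and none passing. Itgb1, the integrin β1 chain, was at 8.25 and 8.09 in B6g7 and 9.38 and 8.83 in NOD (-0.93, adjusted p = 1.0), and its other probe set gave -0.57. Of 20 genes of T cell activation and regulation, 8 lay above 0, with a median of -0.03 and none passing. Without overlap, 3 lay above (15%) and 5 below (25%), against 14.9% and 11% of all genes. Tnfrsf18 (GITR) and Tnfrsf4 (OX40), receptors of regulatory and activated T cells, were among the 5 below, with differences of -0.80 and -0.66 (adjusted p = 1.0 each). Icos was among the 3 above.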
